A study of Macaca mulatta with 9 samples.

Results

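A set of 10 genes whose products serve plasma cells and antibody secretion was followed in macaque whole blood: IRF4, XBP1, POU2AF1, JCHAIN, MZB1, DERL3, FKBP11, SEC11C, TNFRSF17 and SDC1. They were taken by name, and all 10 of 10 are among the 24371 genes of the deposited table. Of the 10, 8 passed the filter on low values, a listed per-million value of at least 1 in 3 or more libraries, as 10596 genes in all did. TNFRSF17 and SDC1 were below 1 in every library and are given as values without a test.

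The blood came from 9 wild-type rhesus macaques (Macaca mulatta), 3 per group, with 1 library per animal. The ABPC_EV animals were injected with extracellular vesicles of antler blastema progenitor cells, the FBMSC_EV animals with vesicles labelled FBMSC, and the PBS animals with the PBS vehicle alone. The title places the study in ageing, and the descriptions call the PBS animals Old. The labels used here state neither ages, doses, routes nor the time of sampling, and name no batch.

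Plasma cells are the end stage of the B cell lineage and secrete antibody in bulk. A B cell becomes one when factors such as IRF4 and PRDM1 shut down the B cell programme and XBP1 enlarges the endoplasmic reticulum (ER), where antibody chains are cut free of their signal peptides, folded, joined and checked before export. Few such cells circulate in healthy blood, and several of these genes are also used elsewhere: IRF4 in activated T cells, POU2AF1 in B cells, MZB1 and JCHAIN in plasmacytoid dendritic cells, and XBP1, FKBP11 and SEC11C in many secreting cells.

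The deposited values are shares of 1000000 per library, per gene length, and globin transcripts take most of that total. Genes outside a list of erythroid genes held 17.0 to 28.7% of the listed values in ABPC_EV libraries, 11.9 to 17.1% in FBMSC_EV libraries and 6.85 to 11.3% in PBS libraries. Reads recovered from the values (approximate totals) numbered 12.9 to 14.3 M per library under ABPC_EV, 13.2 to 14.3 M under FBMSC_EV and 12.2 to 14.6 M under PBS (1 M is 1000000). Outside the erythroid list they numbered 8.04 to 9.29 M, 5.73 to 7.90 M and 3.20 to 5.28 M in the same order. Each gene is therefore given on 2 scales, as deposited and after median-ratio scaling, in which a library is divided by the median ratio of its genes to their geometric mean over libraries. The size factors ran from 1.48 to 2.44 under ABPC_EV, from 0.949 to 1.19 under FBMSC_EV and from 0.328 to 0.751 under PBS, so the groups' factors do not overlap. Log2 changes come from limma on log2(value + 1), which understates the change of low genes, with p-values adjusted by Benjamini-Hochberg over the 10596 genes and a threshold of 0.05. In whole blood, fewer cells of a type and less RNA per cell cannot be told apart.

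The scale decided whether the antibody secretion genes were called. As deposited, all 8 tested members were called higher in ABPC_EV blood relative to PBS, as were 90.9% of all tested genes. After scaling, 0 of 8 were called in any comparison, and 0% of all genes were. Below the threshold, all 8 tested members had a negative scaled log2 change in FBMSC_EV blood against PBS, led by JCHAIN at -1.25 and DERL3 at -0.71. That sign depended on the scaling. When libraries were divided by the sum outside the erythroid list, 4 were positive and 4 negative, all 8 below an all-gene median of 0.41. Against FBMSC_EV, 6 of 8 had a positive scaled change in ABPC_EV blood. The comparisons share groups, so these directions are not separate findings.

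Levels were compared between genes on the scaled per-length values. XBP1 was the most abundant member, with a median over the 9 libraries of 21.1, above 91.3% of the tested genes' medians. JCHAIN followed at 11.6 and POU2AF1 at 10.4, then MZB1 at 5.98, SEC11C at 3.84, IRF4 at 3.42, FKBP11 at 2.88 and DERL3 at 1.43. The median over all tested genes was 3.06. TNFRSF17 (0.264) and SDC1 (0.0772) lay far below. Some neighbours in this order changed places between libraries: JCHAIN was above POU2AF1 in 6 of 9 libraries, SEC11C above IRF4 in 5 of 9 and IRF4 above FKBP11 in 7 of 9. POU2AF1 was above MZB1, FKBP11 above DERL3 and DERL3 above TNFRSF17 in 9 of 9. The plasma cell core fixed as markers (JCHAIN, MZB1, DERL3 and TNFRSF17) had reads in every library, while SDC1 was listed at 0 in 3.

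**Figure D1:**
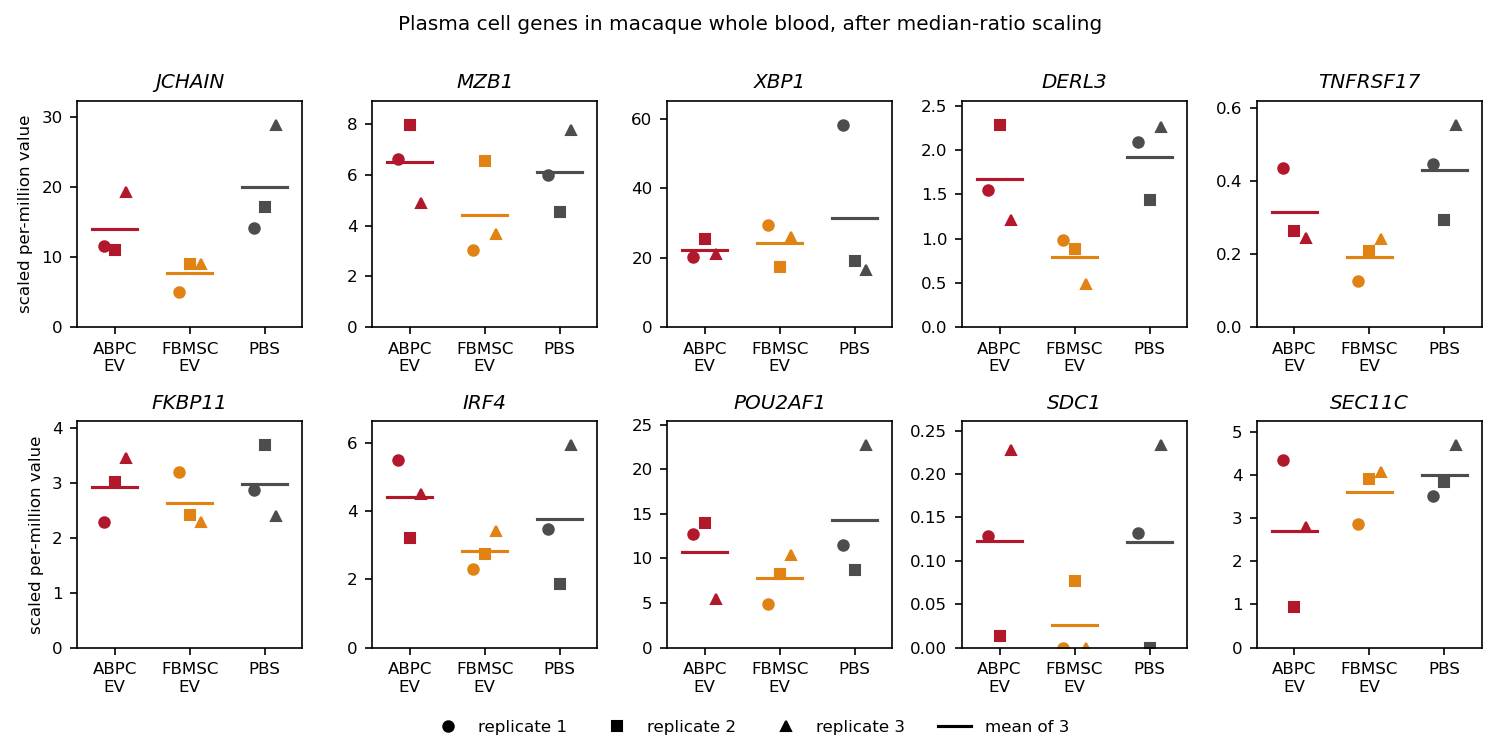
Scaled per-million value (y axis, linear, own range per gene) of each of the 10 genes in the 9 libraries, with ABPC_EV, FBMSC_EV and PBS from left to right, a symbol per replicate number and a line at the mean of 3. JCHAIN and DERL3 show 3 FBMSC_EV points below all 3 PBS points, and XBP1 shows 1 PBS library at 58.2 above all others.

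JCHAIN encodes the chain that joins IgM pentamers and IgA dimers and lets them be carried across epithelia. Its scaled values were 11.6, 10.98 and 19.3 in ABPC_EV replicates 1 to 3, 5.06, 9.07 and 8.99 in FBMSC_EV replicates 1 to 3, and 14.1, 17.2 and 28.8 in PBS replicates 1 to 3. Every FBMSC_EV library lay below every library of both other groups, whereas ABPC_EV and PBS overlapped. The means were 13.9 ± 4.64, 7.71 ± 2.30 and 20.0 ± 7.73 in that order (SD, n = 3 each). For FBMSC_EV against PBS the scaled log2 change was -1.25 (SE 0.33, 95% interval -1.99 to -0.51), with an unadjusted limma p of 0.00374 and an adjusted p of 0.808. Only 0.444% of the tested genes had a lower change in that comparison. ABPC_EV against FBMSC_EV gave 0.77 (SE 0.33, limma adjusted p = 0.930), and ABPC_EV against PBS gave -0.48 (95% interval -1.21 to 0.26, limma adjusted p = 0.670). JCHAIN was also read deeply enough for counting error to be small, with 146 to 999 recovered reads per library.

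As deposited, JCHAIN stood at 17.0, 23.7 and 47.0 in ABPC_EV libraries, at 4.97, 10.8 and 8.54 in FBMSC_EV libraries and at 4.63, 8.10 and 21.6 in PBS libraries. PBS replicate 3 reached into the ABPC_EV range, and the FBMSC_EV libraries lay within the PBS range. The rise in ABPC_EV relative to PBS was 1.40 on the log2 scale (SE 0.48, limma adjusted p = 0.00947), next to a median of 1.41 over all tested genes. Its call depended on single animals: without ABPC_EV replicate 3 it was 1.01 (limma adjusted p = 0.0638), and without PBS replicate 1 it was 0.95 (0.0795). For FBMSC_EV against PBS the change was -0.26, where the median gene stood at 0.70 (limma adjusted p = 0.625), and it was 0.29 without PBS replicate 3. ABPC_EV against FBMSC_EV gave 1.66 (SE 0.48), which did not pass (limma adjusted p = 0.0737), with no overlap between the groups.

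MZB1 encodes an ER cochaperone of the B lineage that helps immunoglobulin M to be assembled and secreted. Its scaled values were 6.61, 7.95 and 4.90 in ABPC_EV, 3.06, 6.55 and 3.66 in FBMSC_EV and 5.98, 4.54 and 7.77 in PBS libraries. The 3 groups overlapped, and the 2 lowest libraries were FBMSC_EV replicates 1 and 3. The scaled change was 0.08 for ABPC_EV against PBS, -0.42 for FBMSC_EV against PBS and 0.50 for ABPC_EV against FBMSC_EV, none called by limma (adjusted p = 0.934, 0.998 and 0.930). As deposited, MZB1 had 9.76, 17.1 and 11.9 in ABPC_EV libraries, 3.01, 7.81 and 3.48 in FBMSC_EV libraries and 1.96, 2.14 and 5.83 in PBS libraries. All 3 ABPC_EV values were above every value of both other groups. With IRF4, MZB1 had the largest rise on log2(value + 1) among the members in ABPC_EV relative to PBS. It was 1.77 (SE 0.41, limma adjusted p = 0.000623), higher than that of 81.5% of the tested genes. By the ratio of deposited means FKBP11 was first at 4.07, before IRF4 at 4.02 and MZB1 at 3.91.

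**Figure D2:**
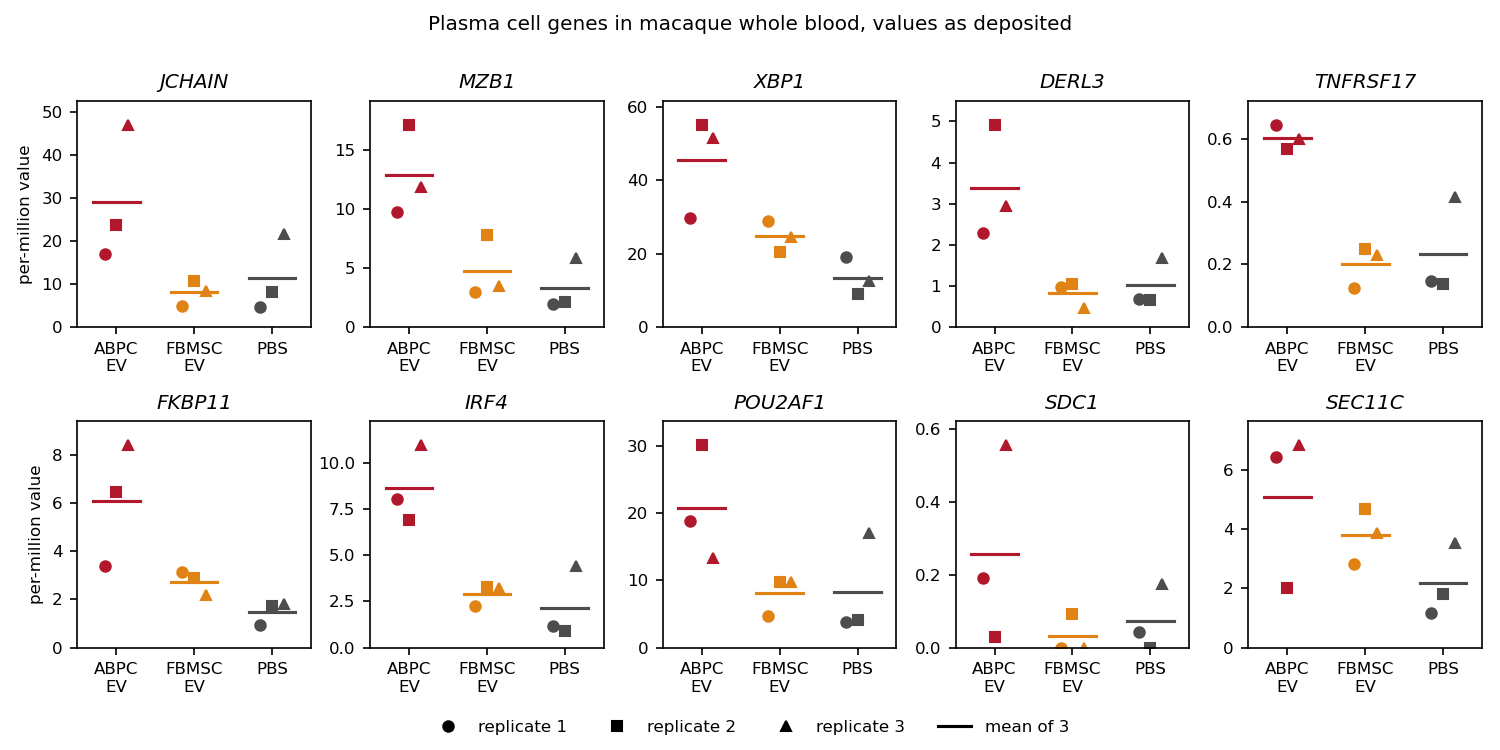
Per-million value as deposited (y axis, linear, own range per gene) of the same 10 genes, with ABPC_EV, FBMSC_EV and PBS from left to right, a symbol per replicate and a line at the mean of 3. The ABPC_EV points are above all PBS points for MZB1, XBP1, DERL3, TNFRSF17, FKBP11 and IRF4, and 1 PBS library reaches the ABPC_EV range for JCHAIN and POU2AF1.

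None of the 3 regulators was called after scaling. XBP1, the transcription factor that is activated by the unfolded protein response, had 20.2, 25.5 and 21.1 scaled units in ABPC_EV libraries, 29.5, 17.3 and 25.9 in FBMSC_EV libraries and 58.2, 19.2 and 16.6 in PBS libraries. PBS replicate 1 stood apart from the other 8, which lay between 16.6 and 29.5. That library also had the lowest size factor and the fewest reads outside the erythroid list, and their part in the XBP1 value was not tested. The scaled change was -0.25 for ABPC_EV against PBS (limma adjusted p = 0.858), and without PBS replicate 1 it was 0.30. As deposited, XBP1 had 29.8, 55.0 and 51.5 in ABPC_EV, 29.0, 20.6 and 24.6 in FBMSC_EV and 19.1, 9.05 and 12.5 in PBS libraries, with no overlap between any pair of groups. It rose by 1.69 in ABPC_EV relative to PBS (SE 0.42, limma adjusted p = 0.0011). It did not pass in FBMSC_EV, at 0.87 (limma adjusted p = 0.115).

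IRF4, which commits activated B cells to the plasma cell fate, had scaled values of 5.48, 3.21 and 4.51 in ABPC_EV, 2.29, 2.74 and 3.42 in FBMSC_EV and 3.48, 1.87 and 5.91 in PBS libraries. The PBS animals spanned the whole range of the other 6. The scaled change was 0.25 for ABPC_EV against PBS and -0.24 for FBMSC_EV against PBS (limma adjusted p = 0.802 and 0.998). As deposited, the values were 8.09, 6.92 and 10.975 in ABPC_EV libraries, 2.25, 3.27 and 3.24 in FBMSC_EV libraries and 1.14, 0.881 and 4.44 in PBS libraries. The ABPC_EV libraries were above all others, and the rise relative to PBS was 1.77 (SE 0.38, limma adjusted p = 0.000474). The deposited change of FBMSC_EV against PBS, 0.47 (limma adjusted p = 0.280), was 0.95 and passed (0.0356) once PBS replicate 3 was left out. That exclusion also moved the number of called genes in this comparison to 4562, against 28 with all libraries.

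POU2AF1, a coactivator that B cells need for germinal centres and immunoglobulin transcription, had scaled values of 12.8, 14.0 and 5.47 in ABPC_EV, 4.86, 8.24 and 10.4 in FBMSC_EV and 11.5, 8.76 and 22.7 in PBS libraries. The groups overlapped in every comparison after scaling. The scaled change was -0.74 for FBMSC_EV against PBS (95% interval -1.69 to 0.20) and -0.37 for ABPC_EV against PBS, with limma adjusted p of 0.998 and 0.790. Its within-group SD on the scaled log2 scale, 0.61, was the highest of the 8, against a median of 0.29 over all tested genes. As deposited, it had 18.8, 30.1 and 13.3 in ABPC_EV, 4.78, 9.84 and 9.84 in FBMSC_EV and 3.78, 4.12 and 17.0 in PBS libraries. The rise in ABPC_EV relative to PBS was 1.44 (SE 0.47, limma adjusted p = 0.00701), and PBS replicate 3 lay within the ABPC_EV range.

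Among the members of the ER machinery, DERL3 had the lowest scaled change of FBMSC_EV against PBS. DERL3 encodes a derlin, which takes part in the removal of misfolded proteins from the ER, and it is the derlin with the most restricted expression. Its scaled values were 1.55, 2.28 and 1.21 in ABPC_EV libraries, 0.990, 0.884 and 0.492 in FBMSC_EV libraries and 2.08, 1.43 and 2.26 in PBS libraries. As with JCHAIN, every FBMSC_EV library was below every library of both other groups. The scaled change of FBMSC_EV against PBS was -0.71 (SE 0.21, 95% interval -1.17 to -0.25), with an unadjusted limma p of 0.00661 and an adjusted p of 0.882. ABPC_EV against FBMSC_EV gave 0.57 (SE 0.21, limma adjusted p = 0.928). The recovered reads were 61, 89 and 59 under ABPC_EV, 27, 29 and 14 under FBMSC_EV, and 24, 25 and 49 under PBS, so counting error is a visible share of the spread. DERL3 passed the filter only through ABPC_EV, whose 3 libraries were among the 5 with a deposited value of at least 1. Elsewhere only FBMSC_EV replicate 2 (1.05) and PBS replicate 3 (1.69) reached 1, short of the 3 libraries required. Its higher level in ABPC_EV than in FBMSC_EV is therefore not independent of its being tested.

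As deposited, DERL3 had 2.28, 4.91 and 2.94 in ABPC_EV, 0.973, 1.05 and 0.467 in FBMSC_EV and 0.684, 0.674 and 1.69 in PBS libraries. ABPC_EV libraries were above all others, and FBMSC_EV and PBS overlapped. The rise in ABPC_EV relative to PBS was 1.11 (SE 0.32, limma adjusted p = 0.00272), smaller than the median gene's 1.41. FBMSC_EV against PBS gave -0.12 (limma adjusted p = 0.740), a value under which 1.72% of the tested genes lay.

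FKBP11 encodes a prolyl isomerase of the ER that assists folding of secreted proteins. It had the smallest within-group spread of the 8 tested members: its scaled values were 2.30, 3.01 and 3.45 in ABPC_EV, 3.21, 2.42 and 2.30 in FBMSC_EV and 2.88, 3.69 and 2.41 in PBS libraries. The groups overlapped in every comparison and the within-group SD was 0.21 on the log2 scale. The 95% intervals of the scaled change were -0.45 to 0.40 for ABPC_EV against PBS and -0.55 to 0.29 for FBMSC_EV against PBS. As deposited it rose by 1.46 in ABPC_EV relative to PBS (SE 0.34, limma adjusted p = 0.000735), with 3.39, 6.50 and 8.41 in ABPC_EV libraries against 0.946, 1.74 and 1.81 in PBS libraries. FBMSC_EV libraries were in between at 3.16, 2.89 and 2.18, without overlap with either group.

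SEC11C encodes a catalytic subunit of the signal peptidase, which cuts the signal peptide from entering chains. Its scaled values were 4.36, 0.930 and 2.80 in ABPC_EV, 2.87, 3.92 and 4.07 in FBMSC_EV and 3.52, 3.84 and 4.70 in PBS libraries. ABPC_EV replicate 2, with 26 recovered reads against 123 and 98 in the other ABPC_EV libraries, was the lowest of the 9. SEC11C had the lowest scaled change of ABPC_EV against PBS among the members, -0.55 (95% interval -1.28 to 0.17, limma adjusted p = 0.609), which was -0.13 without that library. As deposited it had 6.43, 2.004 and 6.81 in ABPC_EV, 2.82, 4.68 and 3.87 in FBMSC_EV and 1.15, 1.81 and 3.52 in PBS libraries. The deposited rise, 0.89 (SE 0.39, limma adjusted p = 0.0342), was larger than that of 14.0% of the tested genes. It was 1.34 without ABPC_EV replicate 2, and it was lost without ABPC_EV replicate 1 (0.68), ABPC_EV replicate 3 (0.65), PBS replicate 1 (0.65) or PBS replicate 2 (0.84), with limma adjusted p of 0.118, 0.139, 0.154 and 0.0720.

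The 2 surface proteins that mark mature plasma cells were near the limit of detection. TNFRSF17 (BCMA), the receptor through which BAFF and APRIL keep plasma cells alive, had 10, 6 and 7 recovered reads in ABPC_EV, 2, 4 and 4 in FBMSC_EV and 3, 3 and 7 in PBS libraries. An exact 95% Poisson interval, which covers counting error only, runs from 4.80 to 18.4 for 10 reads and from 0.242 to 7.22 for 2 reads. The scaled values were 0.436, 0.264 and 0.246 in ABPC_EV, 0.126, 0.209 and 0.241 in FBMSC_EV and 0.448, 0.295 and 0.554 in PBS libraries. The FBMSC_EV libraries were again the 3 lowest, but the counting intervals of these reads overlap between the groups. SDC1 (syndecan-1), a heparan sulfate proteoglycan used to stain plasma cells, had 10, 1 and 22 reads in ABPC_EV, 0, 5 and 0 in FBMSC_EV and 3, 0 and 10 in PBS libraries. For a count of 0 the same interval reaches 3.69 reads. A lower floor was fixed at 3 reads. That floor is a deposited value of 0.0548 and 0.0507 in FBMSC_EV replicates 1 and 3 and of 0.0410 in PBS replicate 2. No order of the groups can be read from SDC1 at this depth.

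**Figure D3:**
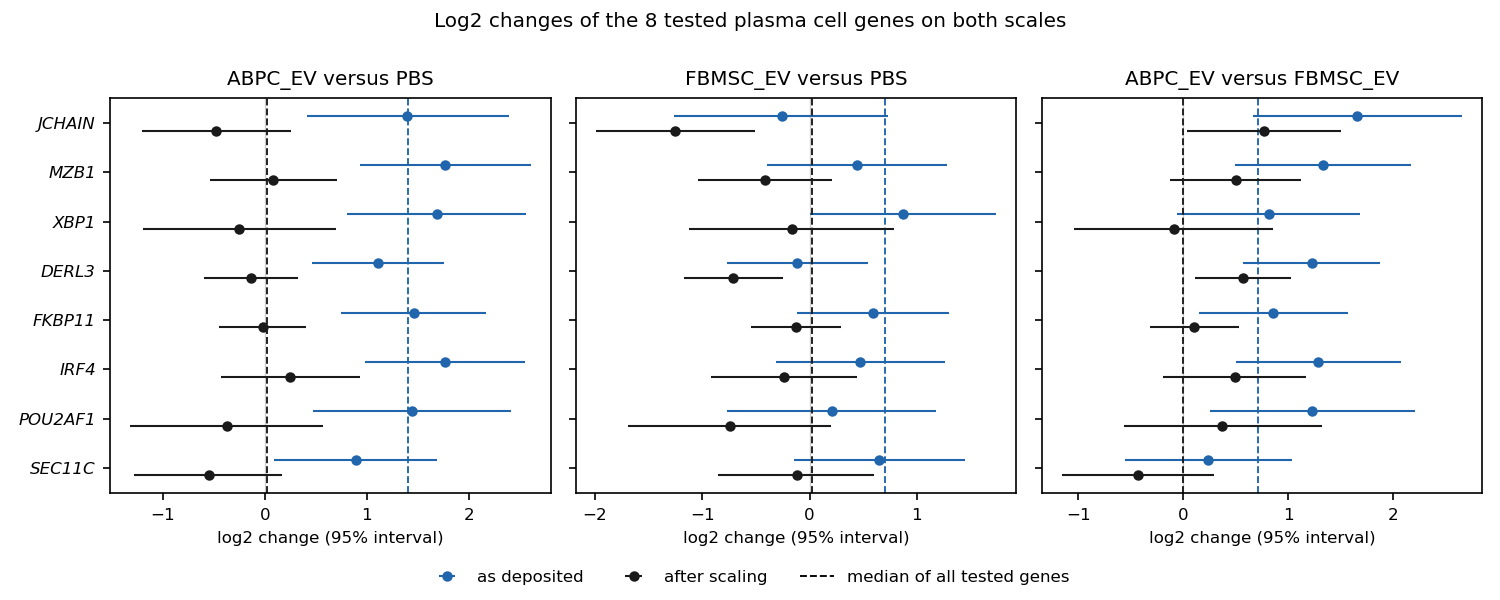
Log2 change (x axis) with its 95% interval for the 8 tested genes in ABPC_EV versus PBS, FBMSC_EV versus PBS and ABPC_EV versus FBMSC_EV, as deposited in blue and after scaling in black; dashed lines mark the median of all tested genes on each scale. The deposited points of the left panel gather around the all-gene median of 1.41, and in the middle panel all 8 scaled points are below 0.

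Read against all genes, the deposited rise in ABPC_EV blood was close to that of the typical gene in the main fit. The 8 tested members had a median log2 change of 1.45, between 0.89 and 1.77, beside 1.41 over all tested genes, with 5 members above and 3 below that median. The split moved with the settings: 2 were above and 6 below with a pseudocount of 0.1, and 4 and 4 with 0.5. Without the filter, where the median over all genes was 0.50, all 8 were above. In 5 of 8 all ABPC_EV libraries were above all PBS libraries, which held for 85.4% of all genes. In FBMSC_EV against PBS the deposited median was 0.46 beside 0.70, and 7 of 8 members were below the all-gene median. limma called 0 of 8 there, and 0 at an unadjusted p under 0.05, where 0.264% and 43.8% of all genes passed. In 2 of 8 (XBP1 and FKBP11) the FBMSC_EV libraries were all above the PBS libraries, against 50.9% of all genes. In ABPC_EV against FBMSC_EV the median was 1.23 beside 0.71, and 7 of 8 members were above the all-gene median, SEC11C (0.24) being below. The ABPC_EV libraries were all above the FBMSC_EV libraries for those 7, as for 50.5% of all genes. limma called 0 of 8 (0.642% of all genes) and 6 of 8 had an unadjusted p under 0.05 (48.3% of all genes).

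After scaling, the median change of the 8 was -0.19 for ABPC_EV against PBS, -0.33 for FBMSC_EV against PBS and 0.43 for ABPC_EV against FBMSC_EV, beside 0.02, 0.02 and 0.00 over all genes. At an unadjusted limma p under 0.05 there were 0, 2 and 2 members, JCHAIN and DERL3 in both cases, against 10.1%, 4.81% and 5.20% of all genes. The same pair had no overlap between FBMSC_EV and each of the other groups, while 0 of 8 were free of overlap between ABPC_EV and PBS (14% of all genes). Complete separation downwards from PBS was seen in 4.84% of genes, and separation of ABPC_EV upwards from FBMSC_EV in 4.63%. DERL3 was among the tested genes only through its ABPC_EV values, which limits its count against FBMSC_EV. limma-voom on the recovered reads also called 0 of 8 in each comparison, and 1, 0 and 0 genes of all tested (0.00944%, 0% and 0%). It gave JCHAIN -1.37 and DERL3 -1.31 for FBMSC_EV against PBS (unadjusted p of 0.00251 and 0.0148, adjusted p of 0.998 for both).

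Markers of the B lineage leaned in the same direction as the members, without calls after scaling. The summed scaled level of 22 B cell genes ran from 126 to 331 in ABPC_EV libraries, from 151 to 288 in FBMSC_EV libraries and from 249 to 448 in PBS libraries, with no marker at 0. The 20 tested B cell genes had a scaled median of -0.58 for FBMSC_EV against PBS, with 18 of 20 negative, and of -0.20 for ABPC_EV against PBS, with 15 of 20 negative. FCRLA, an intracellular Fc receptor-like protein of germinal centre B cells, averaged 2.91 in FBMSC_EV libraries and 9.21 in PBS libraries, a change of -1.49 (unadjusted limma p of 0.00389, adjusted p = 0.808). CD79B, a signalling chain of the B cell receptor, had -1.05 (limma adjusted p = 0.998). As deposited, all 20 were called higher in ABPC_EV relative to PBS, as were 90.9% of all tested genes. In FBMSC_EV against PBS 0 were called (0.264% of all genes). In ABPC_EV relative to FBMSC_EV all 20 had a positive change and 1 was called higher, where 0.642% of all genes were called. It was FCER2, the low-affinity IgE receptor, at 1.45 (limma adjusted p = 0.0411). The scaled direction was not particular to the B lineage, nor shared by all blood cell lists. For FBMSC_EV against PBS the scaled median was -0.48 over 10 platelet genes, with 9 negative, and -0.51 over 44 erythroid genes, with 40 negative. It was 0.35 over 10 monocyte genes, with 9 positive, 0.42 over 13 cytotoxic and NK genes, with 10 positive, and 0.05 over 12 neutrophil genes. For ABPC_EV against FBMSC_EV the scaled median was 0.41 over the platelet genes, with 9 positive, and -0.93 over the erythroid genes. The part of any of these cell types in the members' values was not tested.

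Set against that sum within each library, JCHAIN lost the separation between FBMSC_EV and PBS. JCHAIN amounted to 3.49, 4.0 and 15.4% of the summed B cell markers in ABPC_EV libraries, to 3.34, 6.02 and 3.12% in FBMSC_EV libraries and to 5.68, 6.0 and 6.42% in PBS libraries. ABPC_EV replicate 3, which had the lowest B cell sum of all 9 libraries and the highest JCHAIN of its group, stood far above the rest, and FBMSC_EV and PBS overlapped. POU2AF1 stayed between 3.06 and 5.47% in all 9 libraries, and over them its scaled log2 level had a Pearson r of 0.89 and a Spearman rho of 0.77 with the B cell sum. MZB1 ran from 2.0 to 3.90% in ABPC_EV, from 1.27 to 4.34% in FBMSC_EV and from 1.58 to 2.40% in PBS libraries. XBP1, which many cells express, ranged from 3.71 to 23.4% with both ends in PBS. These 9 points share size factors and groups, and the r is a description only.

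**Figure D4:**
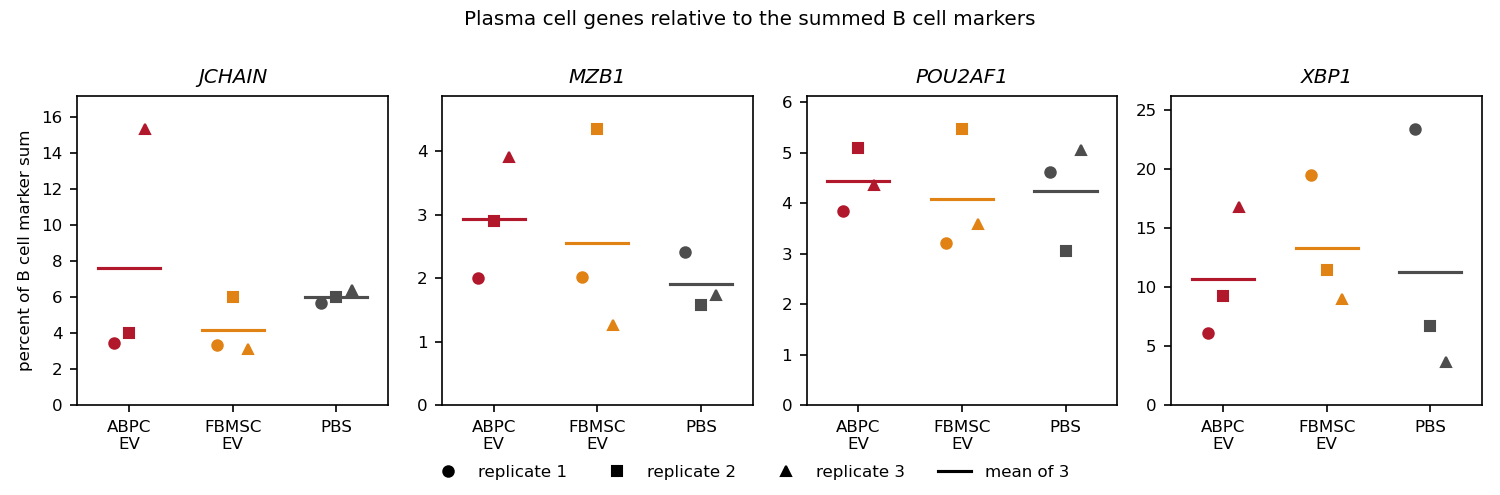
JCHAIN, MZB1, POU2AF1 and XBP1 as a percent of the summed value of 22 B cell markers in the same library (y axis, linear), with ABPC_EV, FBMSC_EV and PBS from left to right, a symbol per replicate and a line at the mean of 3. POU2AF1 stays between 3.06 and 5.47%, and JCHAIN reaches 15.4% in ABPC_EV replicate 3.

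Antibody transcripts could not be followed by name. Of 18 immunoglobulin gene names looked for, 0 are in the table. The RefSeq gene table (assembly T2T-MMU8v2.0) marks 12 loci as antigen receptor constant regions without naming the receptor, which may be an antibody or a T cell receptor. Of these, 11 are in the deposited table under LOC numbers, 9 were tested and 6 form 1 cluster with no gap over 1000000 bases. Such loci have near-identical copies between which reads may have been divided, so each value is uncertain, and the list was drawn from the annotation after the members' values were known. LOC708891 had scaled values of 194, 183 and 187 in ABPC_EV, 92.0, 100.1 and 191 in FBMSC_EV and 380, 194 and 863 in PBS libraries. All FBMSC_EV values were below all PBS values, and the change of -1.72 did not pass (unadjusted limma p of 0.00742, adjusted p = 0.882). LOC107000555 had 11.3, 17.6 and 10 in ABPC_EV, 2.36, 4.14 and 11.1 in FBMSC_EV and 15.7, 14.0 and 26.4 in PBS libraries. Its change of FBMSC_EV against PBS was -1.68 (unadjusted limma p of 0.00386, adjusted p = 0.808).

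Not all loci had this direction, and the loci printed were picked with their values in view. LOC720538 had scaled values of 4.47, 2.23 and 13.4 in ABPC_EV, 2.51, 2.66 and 2.04 in FBMSC_EV and 1.44, 1.01 and 2.15 in PBS libraries. Its scaled change was 1.35 for ABPC_EV against PBS (unadjusted limma p of 0.0134, adjusted p = 0.326) and 0.45 for FBMSC_EV against PBS (limma adjusted p = 0.998). LOC710905 had 0.18 for FBMSC_EV against PBS (limma adjusted p = 0.998). LOC720839 varied widely between animals of a group, with scaled values of 35.4, 269 and 141 in ABPC_EV, 20.0, 42.1 and 26.9 in FBMSC_EV and 63.0, 77.4 and 136 in PBS libraries. In LOC720839 every FBMSC_EV library was below every PBS library. Over the 9 tested loci the scaled median was 0.14 for ABPC_EV against PBS, -0.70 for FBMSC_EV against PBS (7 of 9 negative) and 0.63 for ABPC_EV against FBMSC_EV (9 of 9 positive), with 0 called in each. As deposited, 6 of 9 were called higher in ABPC_EV relative to PBS, where 90.9% of all tested genes were. In FBMSC_EV against PBS 0 were called (0.264% of all genes). In ABPC_EV relative to FBMSC_EV 2 of 9 were called higher, LOC720839 by 2.86 and LOC107000555 by 2.09 (limma adjusted p = 0.0411 and 0.0432). Of all genes 0.642% were called there. The values of these 2 come from a list in which few passed, and they were singled out for passing.

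The wider plasma cell programme had a median close to that of all genes. Of 36 other plasma cell genes, 32 were tested, and their scaled median was 0.02 for ABPC_EV against PBS, -0.10 for FBMSC_EV against PBS and 0.11 for ABPC_EV against FBMSC_EV, with 0 called in each. As deposited all 32 had a positive change in ABPC_EV relative to PBS. Of these 27 were called higher, where 90.9% of all tested genes were, and 0 were called in the other comparisons. PRDM1, the repressor that ends the B cell programme and is also active in T cells, averaged 3.51 scaled units under ABPC_EV and 2.04 under PBS, a change of 0.58 (limma adjusted p = 0.480). ELL2, the elongation factor that favours the secreted form of immunoglobulin heavy chain, had a negative value, with 2.39 under ABPC_EV and 6.33 under PBS, a change of -1.04 (unadjusted limma p of 0.00202, adjusted p = 0.173). TXNDC5, a disulfide isomerase abundant in plasma cells, had 5.0 under ABPC_EV and 2.78 under FBMSC_EV, a scaled change of 0.61 (limma adjusted p = 0.930). SSR4, a translocon-associated subunit, had 13.2 under FBMSC_EV and 20.5 under PBS, a change of -0.61 (limma adjusted p = 0.998). In that comparison ZBP1, also of this list, had 0.83 and PRDM1 had 0.47 (limma adjusted p = 0.998 for both). Of the 32 tested, 21 were negative and 11 positive there. For ABPC_EV against PBS ZBP1 had 1.10 (limma adjusted p = 0.430). FCMR, the receptor for IgM, had a scaled change of -0.76 for FBMSC_EV against PBS and 0.74 for ABPC_EV against FBMSC_EV (limma adjusted p = 0.998 and 0.930).

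The general secretory machinery, which all cells use, had list medians close to that of all genes on the scaled values. In the order ABPC_EV against PBS, FBMSC_EV against PBS and ABPC_EV against FBMSC_EV, the scaled medians were -0.04, -0.02 and -0.02 over 30 translocon, signal peptidase and signal recognition particle genes. They were 0.09, 0.01 and 0.05 over 26 ER chaperones and disulfide enzymes, and -0.03, 0.01 and -0.06 over 28 genes of ER-associated degradation and the unfolded protein response. Over 31 genes of ER to Golgi transport they were 0.15, 0.11 and 0.05, with 24 of 31 above the median of all genes for ABPC_EV against PBS. Summed levels, which the abundant genes dominate, were less alike. The 30 translocon genes summed to 330 to 352 scaled units in ABPC_EV, 342 to 363 in FBMSC_EV and 388 to 394 in PBS libraries, with PBS above all others. The 29 degradation genes in the table summed to 258 to 321 in ABPC_EV, 297 to 380 in FBMSC_EV and 332 to 448 in PBS libraries, with no overlap between ABPC_EV and PBS. None of these genes was called after scaling. As deposited, 29 of 30, 25 of 26, 26 of 28 and 31 of 31 were called higher in ABPC_EV relative to PBS, where 90.9% of all tested genes were. In the other comparisons 0 of each list was called.

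Single members of these lists had larger scaled values than their lists, still below the threshold. SEC62, a subunit of the channel for short precursor proteins, averaged 16.9 under ABPC_EV and 41.5 under PBS, a change of -1.25 (unadjusted limma p of 0.00576, adjusted p = 0.253). SPCS1, an accessory subunit of the signal peptidase to which SEC11C belongs, had 8.74 under FBMSC_EV and 13.5 under PBS, a change of -0.56 (limma adjusted p = 0.998). SELENOK, a component of ER-associated degradation, averaged 10.5 under ABPC_EV and 20.9 under PBS, a change of -1.13 (limma adjusted p = 0.367). PDIA4, a disulfide isomerase, had 0.47 for ABPC_EV against FBMSC_EV (limma adjusted p = 0.930), and SEC22B, a fusion protein of ER vesicles, had 0.52 for FBMSC_EV against PBS (limma adjusted p = 0.998).

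**Figure D5:**
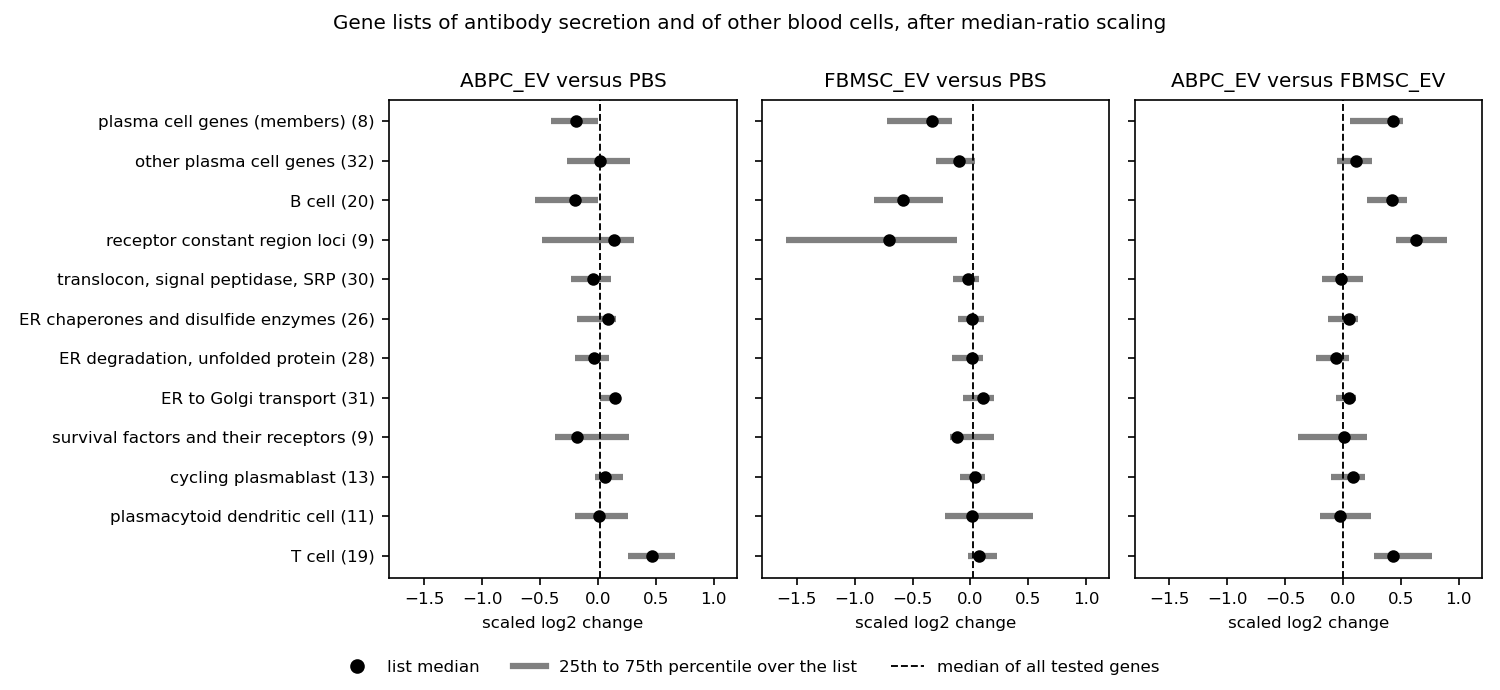
Scaled log2 change (x axis) of gene lists in the 3 comparisons: the point is the list's median over its tested genes (number in brackets), the bar runs from the 25th to the 75th percentile over the list, and the dashed line is the median of all tested genes. For FBMSC_EV versus PBS the B cell list (-0.58), the constant region loci (-0.70) and the 8 plasma cell genes (-0.33) lie to the left, and the medians of the secretory machinery lists lie near the line.

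Signals that keep plasma cells alive, and genes of dividing plasmablasts, were tested in the same way. Among 9 tested survival factors and receptors the scaled medians were -0.18, -0.12 and 0.01 in the same order of comparisons, with 0 called. TNFRSF13B (TACI), the second receptor for BAFF and APRIL, averaged 2.13 under ABPC_EV, 2.11 under FBMSC_EV and 3.53 under PBS (limma adjusted p = 0.709 and 0.998 against PBS). TNFSF13B, which encodes BAFF, averaged 5.88 under ABPC_EV and 13.3 under FBMSC_EV, a scaled change of -0.85 (limma adjusted p = 0.930). Among 13 tested cell cycle genes the scaled medians were 0.06, 0.04 and 0.09 with 0 called. For FBMSC_EV against PBS HMGB2 had 0.65 (unadjusted limma p of 0.00863, adjusted p = 0.882). RRM2, a subunit of ribonucleotide reductase, had 0.38 (limma adjusted p = 0.983), and 8 of the 13 were positive and 5 negative in that comparison. As deposited, 8 of 9 survival genes and 13 of 13 cell cycle genes were called higher in ABPC_EV relative to PBS, as were 90.9% of all tested genes. In the other comparisons 0 were called.

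Other blood cells that share members with plasma cells were set beside them. The summed scaled level of 15 plasmacytoid dendritic cell genes was 157 to 203 in ABPC_EV, 161 to 331 in FBMSC_EV and 106 to 225 in PBS libraries, and the scaled medians of the 11 tested were 0.01, 0.01 and -0.03. CLEC4C, a defining marker of these cells, was listed at 0 in ABPC_EV replicate 1 and PBS replicates 1 and 2, and was highest in FBMSC_EV replicate 3 at 2.24 scaled units. The markers did not share 1 order: LILRA4 had 3.47, 4.33 and 2.56 in ABPC_EV, 4.15, 1.39 and 1.40 in FBMSC_EV and 6.02, 0.871 and 2.57 in PBS libraries, and IL3RA stayed at or below 1.18. BCL11A, a transcription factor these cells share with B cells, averaged 0.963 under FBMSC_EV and 2.01 under PBS, a scaled change of -0.62 (limma adjusted p = 0.998). In the same comparison CLEC4C had 0.99 and IRF7, also of this list, had 0.81 (limma adjusted p = 0.911 and 0.998). Of the 11 tested, 6 were positive and 5 negative there. The 19 T cell genes, whose cells can express IRF4 and PRDM1, summed to 228 to 507 in ABPC_EV, 149 to 337 in FBMSC_EV and 181 to 279 in PBS libraries, with scaled medians of 0.47, 0.07 and 0.43. After scaling 0 of either list were called, and the part of these cells in the members' values was not tested. As deposited, 10 of 11 and 19 of 19 were called higher in ABPC_EV relative to PBS, where 90.9% of all tested genes were. In ABPC_EV relative to FBMSC_EV 9 of 11 and 19 of 19 had a positive change. Of these lists 0 of 11 and 2 of 19 were called higher, where 0.642% of all genes were called.

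Genes most like the plasma cell core were searched for over the 9 libraries with the mean standardised scaled profile of JCHAIN, MZB1 and DERL3. Among 9210 named genes, the highest Pearson r belonged to EVI5L (0.925), ZNF740 (0.900), YWHAH (0.895), TFAP4 (0.894) and TSR1 (0.888). Among the members left out of the profile, TNFRSF17 had 0.798, POU2AF1 0.734, SDC1 0.618 and IRF4 0.544, whereas XBP1, FKBP11 and SEC11C had -0.124, -0.043 and -0.096. The figures of TNFRSF17 and SDC1 rest on 2 to 10 and on 0 to 22 recovered reads per library, near the limit of detection. The best of 9210 genes is a high value by selection, and with 9 libraries that share size factors these figures describe likeness only.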

How the data were processed

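Per the labels' protocols, total RNA of whole blood was made into libraries with a NEBNext Ultra kit and sequenced in pairs on an Illumina platform. Per the submitters' processing notes the build was Mmul_10. Neither aligner, counter nor use of strand is given in the sources used here. The authors deposited log2 values: 0.5 had been added to a per-million value that behaves like TPM, as the values themselves show. They were turned back to the linear scale. No counts are given, so whole reads were recovered per gene (tolerance 0.001): 21539 of 21551 genes above 0 in 2 or more libraries came out whole (99.94%). A divisor common to a gene's libraries cannot be told from its multiple, and the 12 others, very abundant, were approximated.

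The members and gene lists were chosen with earlier results of these data known. The main test was limma 3.58.1 with a trend (R 4.3.3) on log2(value + 1), tested on simulated data first. It was fitted to all 9 libraries together with no term but group. A count test had been planned only for a table of counts. Members were all named. Of other lists, genes were named among the 3 with the smallest scaled p per comparison, and the 5 genes most like the core by Pearson r. LILRA4, IL3RA and LOC710905 were named outside this rule. Alternatives were other pseudocounts, filters, samples, scalings and leaving out each library. Replicate numbers were not taken as a pairing. Correlations of deviations between groups ran from -0.247 to 0.281 for libraries of the same number and from -0.417 to 0.349 for the others. With 3 libraries a group these cannot exclude a pairing. Coordinates are not given, since the RefSeq table is of another assembly.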

Additional observations from a re-analysis of the deposited data

How the results depend on the processing

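With 3 animals a group, the scale and single libraries set what can be called. In ABPC_EV against PBS as deposited, 6 to 8 members were called when 1 library was left out, where most genes were called too. The fits with 6 had 8660 of 9887 genes called in all without ABPC_EV replicate 3, and 8740 of 10581 without PBS replicate 1. Without the filter JCHAIN (1.40), POU2AF1 (1.44) and SEC11C (0.89) missed the threshold, with limma adjusted p of 0.0661, 0.0572 and 0.118. That fit called 11691 of 24371 genes in all. FBMSC_EV against PBS as deposited gave 0 to 1 member, the 1 being without PBS replicate 3 (4562 of 10524 genes called in all). ABPC_EV against FBMSC_EV gave 0 to 7. There 7 were called without ABPC_EV replicate 1 (4610 of 10062 genes called in all), 5 without PBS replicate 3 (2702 of 10524), 3 without FBMSC_EV replicate 2 (415 of 10420), and 2 without ABPC_EV replicate 2 (420 of 9979) or without PBS replicate 2 (187 of 10572). A replicate block gave 6 in that comparison, with 3406 of 10596 genes called in all. The numbers were not taken as a pairing, and the block changed the count of called members in no other comparison. After scaling, 0 were called under every alternative run.

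Several scaled directions turned with the scaling, not only those near 0. Dividing by the sum outside the erythroid list moved the median of all genes to 0.73 for ABPC_EV against PBS, 0.41 for FBMSC_EV against PBS and 0.32 for ABPC_EV against FBMSC_EV. In the first it gave XBP1 0.49, JCHAIN 0.25, POU2AF1 0.34, FKBP11 0.69 and DERL3 0.48. In the second it gave XBP1 0.25, IRF4 0.11, SEC11C 0.25 and FKBP11 0.23, and in the third XBP1 0.24. Scaling by the 75th percentile gave FKBP11 0.07 in the first and XBP1 0.01 in the third. Under both scalings 2 of 8, 0 of 8 and 6 of 8 members were above the median of all genes in the 3 comparisons, as in the median-ratio fit.

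JCHAIN and DERL3 stayed negative for FBMSC_EV against PBS after scaling in every alternative run. JCHAIN ran from -1.47 to -0.97 and DERL3 from -0.87 to -0.59 with 1 library left out, and DERL3 was -1.21 with a pseudocount of 0.1. Leaving out 1 library turned other scaled values: for ABPC_EV against PBS, XBP1 ran from -0.58 to 0.30, POU2AF1 from -0.65 to 0.02, MZB1 from -0.09 to 0.25, IRF4 from -0.07 to 0.57, FKBP11 from -0.13 to 0.10 and DERL3 from -0.27 to 0.00. For FBMSC_EV against PBS, XBP1 ran from -0.49 to 0.39, IRF4 from -0.57 to 0.08 and SEC11C from -0.20 to 0.00, and for ABPC_EV against FBMSC_EV XBP1 ran from -0.30 to 0.07. As deposited, JCHAIN ran from -0.71 to 0.29, POU2AF1 from -0.13 to 0.83 and DERL3 from -0.23 to 0.11 for FBMSC_EV against PBS, and SEC11C from 0.00 to 0.69 for ABPC_EV against FBMSC_EV. The causes were not tested.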
